A study of Mus musculus with 18 samples.

Results

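Cumulus cells and mural granulosa cells of the mouse ovary were compared for how far they moved between 0 h and 12 h after hCG, the hormone given in place of the natural surge of luteinizing hormone. The quantity described is a difference of changes: the log2 change of cumulus cells between 12 h and 0 h minus the log2 change of mural cells between the same times. It used 12 of the 18 libraries of the series, chosen by their labels and not by any measured value: 3 of cumulus cells at 12 h, 3 of cumulus cells at 0 h, 3 of mural cells at 12 h and 3 of mural cells at 0 h. All mice were labelled wild type (WT) and the treatment label gave only hCG and its hour. Strain, age, any priming hormone and the number of animals behind a library were not given in the sources used here. Nothing says that the 3 libraries of a group came from separate animals, so the p-values below measure only the spread between these libraries, which may be technical. For the cumulus libraries the title and the library name say cumulus while the cell type field says mural granulosa cell or is empty, and the titles were followed.

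Cumulus cells surround the oocyte and mural cells line the follicle wall, and both descend from the same granulosa lineage. The luteinizing hormone receptor sits mainly on mural cells, which answer the surge by releasing EGF-like growth factors that carry the signal to the cumulus. Cumulus cells then lay down a hyaluronan matrix and expand around the oocyte, while mural cells turn toward making progesterone and become luteal cells after ovulation.

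The 12 libraries held 34.9 M to 47.9 M counts each, M standing for 1e6, and 19045 genes with enough counts were tested. Levels are given as CPM, counts scaled to a common library total, which are not corrected for gene length, so levels are compared between libraries and never between genes. Oocyte RNA did not run evenly through the groups. The summed level of 16 oocyte markers was 7.72, 11.3 and 6.03 CPM in cumulus cells at 12 h against 449, 2143 and 2217 CPM at 0 h. In mural cells the sum ranged over 142 to 341 CPM at 12 h and 161 to 678 CPM at 0 h. Cumulus libraries of 12 h were thus the lowest of all 12, and the 0 h cumulus libraries also held the largest share of counts from mitochondrially encoded genes. That share was 2.49, 2.51 and 2.94% in cumulus cells at 12 h against 12.6, 8.40 and 8.42% at 0 h, and 3.93, 3.50 and 4.11% in mural cells at 12 h against 4.81, 4.97 and 5.99% at 0 h. Replicate 1 of cumulus cells at 0 h stood apart from its group, with the lowest oocyte sum and the highest mitochondrial share of the 3. In bulk samples such as these, fewer cells of a type and less RNA per cell cannot be told apart.

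**Figure D1:**
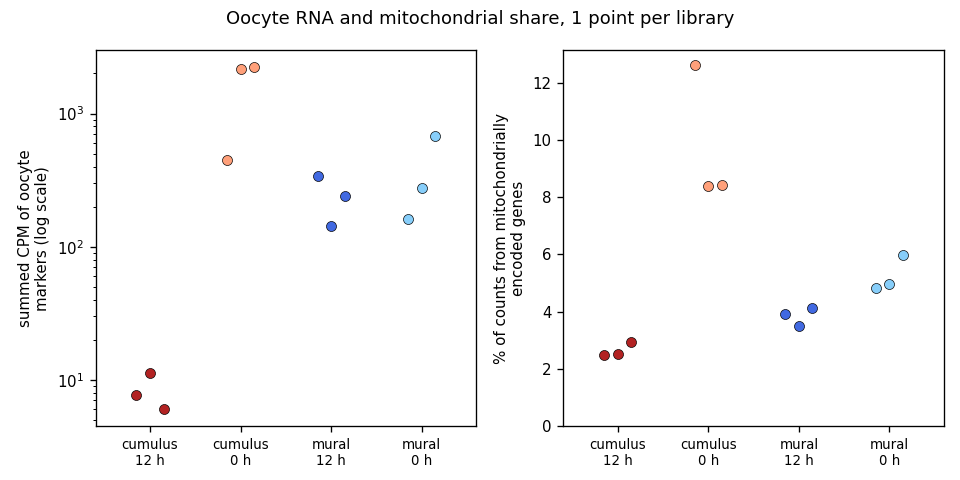
Each point is 1 library, with the summed CPM of the 16 oocyte markers on a log axis at left and the percent of counts from mitochondrially encoded genes at right. Cumulus libraries of 12 h lie between 6.03 and 11.3 CPM of oocyte markers, against 449 to 2217 CPM in cumulus libraries of 0 h.

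The labelled cell types were checked against markers. The 9 granulosa lineage markers summed to 3720.0 to 4100.1 CPM in cumulus cells at 12 h against 8768 to 12022 at 0 h, and 4749 to 5616 CPM in mural cells at 12 h against 16963 to 20569.9 at 0 h. Markers that are higher in mural than in cumulus cells before hCG, such as the luteinizing hormone receptor gene Lhcgr, summed to 359.6 to 398 CPM in cumulus cells at 12 h against 118 to 176 at 0 h, and 4889 to 6024 CPM in mural cells at 12 h against 2135 to 2594 at 0 h, so mural libraries were above cumulus libraries at both times. Most of the 12 h sum was Cyp11a1, at 346 to 384 CPM in cumulus cells and 4039 to 5099 CPM in mural cells. Cd34 was likewise higher at 12 h than at 0 h, Nppc and Cyp19a1 were lower in both cell types, and Lhcgr overlapped between the times. The list of genes known as higher in cumulus cells before hCG, among them Amh, Slc38a3 and Npr2, summed to 227 to 251 CPM in cumulus cells at 12 h against 1359 to 1590.1 at 0 h, and 417 to 626 CPM in mural cells at 12 h against 1079 to 1165 at 0 h. Those sums separated the cell types at 0 h and were lower in cumulus than in mural libraries at 12 h. Most of the 0 h sum was Npr2, with 950 to 1076 CPM in cumulus cells against 614 to 710 CPM in mural cells, while Amh overlapped between the cell types at 0 h and Slc38a3 was not higher in cumulus cells. Theca and stroma markers summed to 126 to 131 CPM in cumulus cells at 12 h against 43.02 to 56.9 at 0 h, and 416 to 642 CPM in mural cells at 12 h against 644 to 1123 at 0 h. Most of the cumulus sum was Ptch1, at 107 to 114 CPM at 12 h against 32.3 to 42.5 CPM at 0 h, and Insl3, Tcf21 and Dcn were under 1 CPM in every cumulus library. Cyp17a1, which defines theca cells, was at 0 to 0.215 CPM in cumulus cells at 12 h against 0.309 to 0.877 CPM at 0 h, and at 2.79 to 6.82 CPM in mural cells at 12 h against 104 to 140.0 CPM at 0 h. Red blood cell markers summed to 18.3 to 111 CPM in cumulus cells at 12 h against 9.04 to 18.5 at 0 h, and 394 to 753 CPM in mural cells at 12 h against 90.6 to 150.2 at 0 h. Other sums were low. Smooth muscle markers reached at most 151 CPM, macrophage markers 37.99 CPM and markers of ovarian surface and oviduct epithelium 34.3 CPM, each in a mural library of 0 h. T cell, B cell and neutrophil markers reached at most 11.4, 8.42 and 5.17 CPM, and Ly6g of neutrophils had no count. The endothelial sum, 158 to 183 CPM in cumulus cells at 12 h against 19.7 to 26.7 at 0 h, and 133 to 166 CPM in mural cells at 12 h against 38.3 to 54.6 at 0 h, was mostly Cdh5 at 12 h, which held 152 to 178 CPM of it in cumulus cells and 118 to 146 CPM in mural cells, while the endothelial markers Cldn5 and Emcn were at most 1.65 and 1.93 CPM in any library. The part of these other cells in the differences below was not tested.

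Nearly equal numbers of genes were called with the higher and with the lower change in cumulus cells. By the quasi-likelihood test of edgeR, with p adjusted by Benjamini-Hochberg and a threshold of 0.05, the change differed for 9497 of 19045 genes (49.9%). Of these, 4628 genes (24.3%) had the higher change in cumulus cells and 4869 (25.6%) the lower one, and 5141 (27.0%) differed by at least 2-fold. Below, a difference given for a gene with ± its standard error is this difference of changes on the log2 scale. The median difference over all genes tested was -0.04 on the log2 scale. Within each cell type, 13345 genes (70.1%) differed between 12 h and 0 h in cumulus cells and 9482 (49.8%) in mural cells. In cumulus cells 33.6% of all genes rose and 36.4% fell, and in mural cells 25.5% rose and 24.3% fell. A set of 1357 genes tracked the oocyte markers across the cumulus libraries of 0 h and 4 h, with a correlation of at least 0.9, and is called oocyte-following here. Of these, 8 were called higher and 981 lower, with a median difference of -3.57. Outside them, 8508 of 17688 genes (48.1%) were called, 4620 higher (26.1%) and 3888 lower (22.0%). Cumulus cells had the larger change in size in 6468 of those 8508 genes (76.0%).

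The called genes were made up of several patterns. A fall in cumulus cells with no call in mural cells was found for 2305 genes, of which 885 were oocyte-following, and 1607 genes rose in cumulus cells with no call in mural cells. Another 1629 genes rose in both cell types and further in cumulus cells, and 1211 fell in both and further in cumulus cells. In the other direction, 540 genes fell in mural cells only and 466 rose in mural cells only, by the calls within each cell type. Opposite calls in the cell types, with a called difference, were made for 1020 genes (5.36%): 553 rose in cumulus cells and fell in mural cells, and 467 did the reverse.

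**Figure D2:**
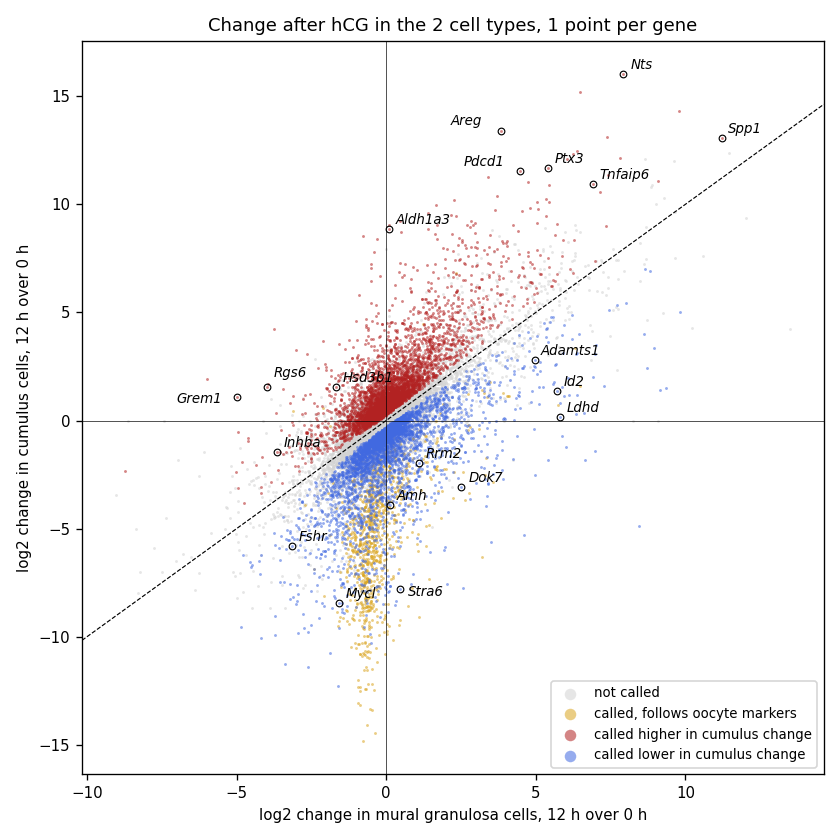
Each point is 1 gene, with its log2 change between 12 h and 0 h in mural cells on the x axis and in cumulus cells on the y axis, and the dashed line marks equal changes. Points above the line had the higher change in cumulus cells (4628 called) and points below it the lower one (4869 called), and yellow points are the called oocyte-following genes, which hang below the line near a mural change of 0.

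The largest positive differences outside the oocyte-following genes, where the highest group averaged 20 CPM or more, belonged to Areg, Aldh1a3, Krt23, Nts, Wisp1, Flnc, Tgm2, Pdcd1, Fgl2 and Enpp3. Of these, 8 rose in both cell types and further in cumulus cells, and Aldh1a3 and Fgl2 rose in cumulus cells with no call in mural cells. In all 10 the 3 cumulus libraries of 12 h lay above the 3 mural libraries of 12 h, and at 0 h the cumulus mean was below the mural mean. At 0 h the libraries of the cell types overlapped for Krt23 and Pdcd1. The share of all genes without overlap between the cell types was not counted at either time. The differences thus joined a lower starting level in cumulus cells to a higher level at 12 h. The difference equals the gap between the cell types at 12 h minus that at 0 h. Ranking genes by it favours this form, which was thus part of the choice.

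Areg encodes amphiregulin, an EGF-like growth factor of the ovulatory signal, and lies at chr5:91139599-91148432 (GRCm38, GENCODE M21). It had 42.3, 26.8 and 32.6 CPM in cumulus cells at 12 h against 0, 0 and 0 CPM at 0 h. Mural cells had 14.9, 17.2 and 15.02 CPM at 12 h against 1.25, 1.36 and 0.72 CPM at 0 h. No read was counted for it in any cumulus library of 0 h, so its fitted difference of 9.55 ± 0.71 (adjusted p = 1.73e-07) depends on the prior count. Against a floor of 3 counts over the group, Areg was at least 1412-fold higher at 12 h in cumulus cells, and in mural cells it was 14.3-fold higher. Nts, the gene of the peptide neurotensin, had 237, 189 and 215 CPM in cumulus cells at 12 h against 0, 0 and 0 CPM at 0 h. The mural libraries held 22.2, 26.5 and 18.96 CPM at 12 h against 0.0805, 0.156 and 0.045 CPM at 0 h. It too had no count in cumulus cells at 0 h, and its change was at least 8911-fold in cumulus cells against 248-fold in mural cells, for a fitted difference of 8.12 ± 1.17 (adjusted p = 9.24e-05). Krt23, an epithelial keratin, was the other gene of this group without a count there. It averaged 121 ± 21.7 CPM at 12 h and 0 ± 0 CPM at 0 h for cumulus cells, and 2.96 ± 0.731 CPM at 12 h and 0.0324 ± 0.0283 CPM at 0 h for mural cells (SD, n = 3 each), with a change of at least 5014-fold in cumulus cells against 97.0-fold in mural cells. Its call (adjusted p = 0.00374) ended with the oocyte marker sum as a covariate.

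Aldh1a3, which makes retinoic acid from retinaldehyde, had 153, 105 and 119 CPM in cumulus cells at 12 h against 0.255, 0.146 and 0.404 CPM at 0 h. In mural libraries, 2.32, 2.49 and 2.55 CPM were counted at 12 h against 2.11, 2.16 and 2.61 CPM at 0 h. Mural libraries of the 2 times lay within a narrow band and the whole difference of 8.78 ± 0.30 (adjusted p = 3.81e-11) came from cumulus cells, where the change was 8.88 on the log2 scale. Fgl2, a fibrinogen-like secreted protein, had the same form with 50.4, 44.8 and 50.4 CPM in cumulus cells at 12 h against 0.113, 0.501 and 0.262 CPM at 0 h. Mural levels were 7.02, 8.55 and 10.5 CPM at 12 h against 5.29, 4.48 and 9.13 CPM at 0 h, and its difference was 6.83 ± 0.49 (adjusted p = 4.17e-07). Pdcd1, known as PD-1, the inhibitory receptor of T cells, had 297, 341 and 321 CPM in cumulus cells at 12 h against 0.283, 0.0627 and 0 CPM at 0 h. Values in mural cells were 8.997, 6.80 and 7.56 CPM at 12 h against 0.262, 0.391 and 0.405 CPM at 0 h. Its difference was 7.07 ± 0.64 (adjusted p = 2.39e-06). The 7 T cell markers summed to 8.85 to 8.90 CPM in cumulus cells at 12 h against 5.33 to 5.85 CPM at 0 h, and to 10.3 to 11.4 CPM in mural cells at 12 h against 4.82 to 5.01 CPM at 0 h. Among them the T cell receptor subunit gene Cd3e was at no more than 0.0283 CPM in any library, and the kinase gene Lck at 8.39 to 8.56 CPM in cumulus cells at 12 h against 3.24 to 5.01 CPM at 0 h. The part of T cells in the Pdcd1 values was not tested.

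The other 4 of the 10 rose from low cumulus levels. Tgm2, a transglutaminase that cross-links proteins, averaged 252 ± 41.9 CPM at 12 h and 0.338 ± 0.0761 CPM at 0 h for cumulus cells, and 69.0 ± 4.87 CPM at 12 h and 15.3 ± 4.51 CPM at 0 h for mural cells. Its difference was 7.34 ± 0.34 (adjusted p = 1.15e-08). For Enpp3, an ectoenzyme that cleaves nucleotides, the means were 228 ± 9.44 CPM at 12 h and 0.679 ± 0.272 CPM at 0 h for cumulus cells, and 17.1 ± 0.679 CPM at 12 h and 5.29 ± 0.251 CPM at 0 h for mural cells. The difference was 6.70 ± 0.20 (adjusted p = 7.42e-12), with the smallest standard error of the 10. Wisp1, a secreted matricellular protein of the CCN family, differed by 7.93 ± 0.54 (adjusted p = 3.04e-08), and Flnc, the actin cross-linker filamin C, by 7.45 ± 0.44 (adjusted p = 1.31e-07).

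Promoters, here the 250 bases before to 50 bases after a RefSeq transcript start (GRCm38.p6), were searched on both strands for 3 motifs of factors known from the ovulatory response. Of the 10 genes, 7 had a promoter in the table used and 3 held a motif. Of the 10 largest negative differences, described next, 7 had a promoter and 0 held a motif. The share of all genes with any of the 3 motifs was not counted, so these counts show no enrichment. The promoters of the 3 genes with a motif follow, 5′ to 3′ on the gene's own strand, with the motif in capitals. The promoter of Areg (chr5:91139349-91139648, plus strand) held the cAMP response element TGACGTCA, and those of Fgl2 (chr5:21372423-21372722, plus strand) and Nts (chr10:102490369-102490668, minus strand) held the AP-1 motif TGANTCA.
Areg: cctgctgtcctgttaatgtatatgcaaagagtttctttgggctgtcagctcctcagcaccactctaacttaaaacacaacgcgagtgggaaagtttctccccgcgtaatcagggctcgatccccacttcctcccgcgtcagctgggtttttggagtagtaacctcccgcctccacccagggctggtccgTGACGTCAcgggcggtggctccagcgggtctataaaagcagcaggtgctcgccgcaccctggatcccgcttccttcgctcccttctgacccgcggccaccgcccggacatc
Fgl2: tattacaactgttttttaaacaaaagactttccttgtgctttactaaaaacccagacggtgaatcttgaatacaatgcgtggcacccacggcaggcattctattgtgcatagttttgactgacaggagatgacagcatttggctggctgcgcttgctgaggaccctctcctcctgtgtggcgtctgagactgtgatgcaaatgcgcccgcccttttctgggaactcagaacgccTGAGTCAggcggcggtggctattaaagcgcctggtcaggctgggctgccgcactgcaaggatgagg
Nts: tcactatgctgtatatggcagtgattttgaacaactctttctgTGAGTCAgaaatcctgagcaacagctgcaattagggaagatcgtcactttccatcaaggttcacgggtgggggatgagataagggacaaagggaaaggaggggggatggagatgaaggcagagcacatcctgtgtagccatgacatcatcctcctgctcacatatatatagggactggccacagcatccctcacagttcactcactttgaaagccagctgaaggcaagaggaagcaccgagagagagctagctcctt
Over all 16893 promoters of 13292 tested genes, 2.66% held the cAMP response element, against 2.62% of promoters of genes called higher and 2.51% of those called lower. The AP-1 motif was in 5.92% of all, 5.90% of higher and 5.91% of lower promoters, and the SF-1 motif CAAGGTCA in 1.26%, 1.03% and 1.32%. Among promoters of genes called higher by at least 2-fold the shares were 1.87% for the cAMP response element, 7.88% for AP-1 and 1.33% for SF-1. Among those called lower by at least 2-fold outside the oocyte-following genes they were 2.14%, 6.19% and 1.91%. These shares were not tested. A match describes letters in this window and shows no binding.

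The largest negative differences, by the same rule, belonged to Stra6, Cnnm1, Mycl, Kctd14, Otof, Slc38a3, Ldhd, Dok7, Mmd2 and Slc9a3. Of these, 9 fell in cumulus cells and Ldhd did not, and in mural cells 6 fell, 3 rose and Otof was not called. At 12 h the cumulus libraries lay below the mural libraries in all 10 genes, a form that ranking by the difference favours. Stra6, the cell surface receptor that takes up retinol from its binding protein, had 0.241, 0.179 and 0.215 CPM in cumulus cells at 12 h against 55.4, 42.3 and 45.2 CPM at 0 h. The mural values were 17.4, 11.5 and 19.7 CPM at 12 h against 12.5, 12.04 and 10.98 CPM at 0 h. Cumulus libraries were the highest at 0 h and the lowest at 12 h, for a difference of -8.24 ± 0.31 (adjusted p = 4.21e-11). Mycl, a MYC family transcription factor, had 0.905, 1.31 and 1.94 CPM in cumulus cells at 12 h against 504, 494 and 456 CPM at 0 h. For mural cells these were 54.6, 30.1 and 46.4 CPM at 12 h against 118, 130.0 and 146 CPM at 0 h. It fell in both cell types, by 8.43 on the log2 scale in cumulus cells and by 1.58 in mural cells, a difference of -6.85 ± 0.34 (adjusted p = 4.67e-08).

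Slc38a3, an amino acid transporter known as a gene that oocytes raise in cumulus cells, had 1.06, 1.40 and 1.61 CPM in cumulus cells at 12 h against 99.7, 155 and 117 CPM at 0 h. Libraries of mural cells had 117, 65.1 and 96.8 CPM at 12 h against 145, 141 and 167 CPM at 0 h. The means of the other groups lay within a 2-fold range and the cumulus libraries of 12 h stood apart, with a difference of -5.80 ± 0.36 (adjusted p = 4.47e-07). Ldhd, the mitochondrial D-lactate dehydrogenase, showed the reverse form, with 5.52, 7.52 and 4.71 CPM in cumulus cells at 12 h against 3.17, 5.39 and 7.23 CPM at 0 h. In mural cells it had 331, 375 and 352 CPM at 12 h against 6.38, 5.55 and 7.04 CPM at 0 h. It rose in mural cells alone by 5.80 on the log2 scale, and the difference was -5.65 ± 0.36 (adjusted p = 4.82e-07). Cnnm1 differed by -6.95 ± 0.47 (adjusted p = 7.08e-07), Kctd14 by -6.28 ± 0.22 (adjusted p = 8.29e-11) and Otof, otoferlin of vesicle release, by -5.96 ± 0.26 (adjusted p = 4.31e-09). Mmd2 differed by -5.56 ± 0.32 (adjusted p = 4.31e-09) and Slc9a3, a sodium and proton exchanger, by -5.33 ± 0.38 (adjusted p = 2.26e-08).

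**Figure D3:**
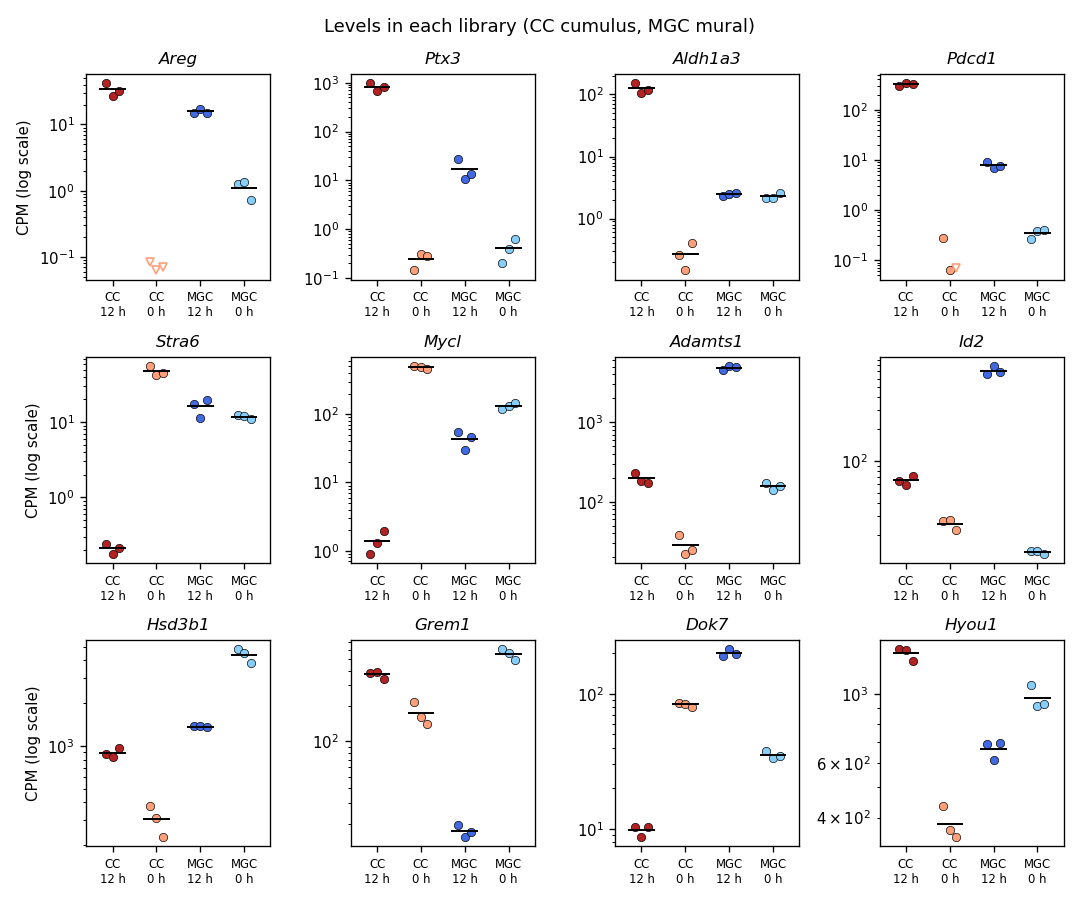
Levels of 12 genes in each library, as CPM on a log axis, with cumulus (CC) at 12 h and 0 h at left and mural (MGC) at 12 h and 0 h at right, bars at the mean of 3 libraries, and open triangles for libraries with 0 counts, drawn at 3 counts. Cumulus libraries of 12 h are the highest group for Areg, Ptx3, Aldh1a3, Pdcd1 and Hyou1 and the lowest for Stra6, Mycl and Dok7, and Grem1 and Hsd3b1 move in opposite directions in the cell types.

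Among the genes that moved in opposite directions, the 10 whose smaller change was largest were Dok7, Zpld1, Arrdc4, Apoa1, Adgrf5, Rgs6, Rbfox1, Hsd3b1, Tspan15 and Alas2. Of these, Zpld1, Arrdc4, Rgs6 and Hsd3b1 rose in cumulus cells and fell in mural cells, and the other 6 fell in cumulus cells and rose in mural cells. Dok7, an adaptor of the muscle-specific kinase MuSK, had 10.3, 8.74 and 10.4 CPM in cumulus cells at 12 h against 85.3, 84.2 and 80.5 CPM at 0 h. At 12 h mural cells had 192, 213 and 197 CPM, against 37.5, 33.2 and 34.4 CPM at 0 h. The 4 groups did not overlap, and the difference was -5.60 ± 0.12 (adjusted p = 1.28e-13). Rgs6, which speeds the turning off of G proteins, had 10.6, 9.13 and 11.3 CPM in cumulus cells at 12 h against 3.28, 3.80 and 3.38 CPM at 0 h. Mural cells had 3.11, 3.82 and 4.19 CPM at 12 h against 61.8, 64.9 and 51.1 CPM at 0 h. It was highest in mural cells at 0 h, and cumulus cells were above mural cells at 12 h. The difference of changes was 5.56 ± 0.20 on the log2 scale (adjusted p = 3.81e-11).

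Arrdc4, an arrestin family protein that lowers glucose uptake, averaged 102 ± 8.51 CPM at 12 h and 20.2 ± 3.56 CPM at 0 h for cumulus cells, and 17.5 ± 1.27 CPM at 12 h and 71.2 ± 12.3 CPM at 0 h for mural cells, with changes of 2.34 ± 0.14 in cumulus cells and -2.03 ± 0.14 in mural cells. Rbfox1, a splicing regulator, averaged 17.99 ± 1.25 CPM at 12 h and 104 ± 5.09 CPM at 0 h for cumulus cells, and 19.8 ± 1.28 CPM at 12 h and 6.72 ± 0.549 CPM at 0 h for mural cells, and the cell types, far apart at 0 h, overlapped at 12 h. Apoa1, the main protein of high density lipoprotein, changed by -1.66 ± 0.10 in cumulus cells and 2.14 ± 0.10 in mural cells. Adgrf5, an adhesion receptor, changed by -2.12 ± 0.13 in cumulus cells and 1.59 ± 0.13 in mural cells, Tspan15, a tetraspanin, by -1.49 ± 0.14 in cumulus cells and 1.53 ± 0.12 in mural cells and Zpld1, a zona pellucida-like domain protein, by 2.61 ± 0.17 in cumulus cells and -2.06 ± 0.17 in mural cells. Alas2, the heme synthesis enzyme of red blood cells, changed by -1.48 ± 0.41 in cumulus cells and 2.27 ± 0.40 in mural cells. It is itself a red blood cell marker, and the sum of those markers, given above, was also higher in mural cells at 12 h than at 0 h. In cumulus cells, where Alas2 fell, that sum was 18.3 to 111 CPM at 12 h against 9.04 to 18.5 CPM at 0 h. Of the 7 red blood cell markers, Alas2 was the 1 called for the difference. The part of red blood cells in the Alas2 values was not tested.

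Of the 30 ovulation genes always to be described, 16 were called higher and 7 lower, against 24.3% and 25.6% of all genes. Their median difference was 1.14, against -0.04 over all genes. For each list below, the counts are to be set beside those shares of all genes. Rises and falls are to be set beside 33.6% and 36.4% of all genes in cumulus cells, and 25.5% and 24.3% in mural cells. EGF-like ligands and receptors carry the signal between mural and cumulus cells. Of their 12 genes tested 6 were called higher and 2 lower, with a median of 0.41. With the oocyte marker sum as a covariate 1 was higher and 2 lower. Ereg, epiregulin, had 437, 235 and 269 CPM in cumulus cells at 12 h against 0.113, 0 and 0 CPM at 0 h. The mural libraries held 136, 153 and 127 CPM at 12 h against 1.05, 0.704 and 0.697 CPM at 0 h. It rose in both cell types and its libraries were already apart at 0 h, with the mural level higher, for a difference of 5.74 ± 0.90 (adjusted p = 0.000452). It was 9.23 without replicate 1 of cumulus cells at 0 h, the one library of that group with a count. Btc, betacellulin, averaged 261 ± 36.8 CPM at 12 h and 3.05 ± 0.851 CPM at 0 h for cumulus cells, and 70.7 ± 2.51 CPM at 12 h and 2.54 ± 0.221 CPM at 0 h for mural cells, a difference of 1.62 ± 0.22 (adjusted p = 3.92e-05). Hbegf fell in both cell types and further in cumulus cells (-2.91 ± 0.37, adjusted p = 1.11e-05), and the receptor gene Erbb3 rose in cumulus cells only by the calls within each cell type (2.08 ± 0.30, adjusted p = 3.23e-05). Calls for Ereg, Btc and Erbb3 ended with the oocyte marker sum as a covariate, and that for Ereg also by limma's voom.

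ERK feedback genes, which act downstream of those receptors, split: the call was 7 higher and 6 lower of 13 tested. The shares over all genes were 24.3% and 25.6%. With the oocyte marker sum as a covariate 3 ERK feedback genes were higher and 2 lower. Dusp4, a phosphatase of MAP kinases, had 171, 165 and 151 CPM in cumulus cells at 12 h against 0.0566, 0.167 and 0.19 CPM at 0 h. In mural libraries, 31.8, 40.01 and 27.9 CPM were counted at 12 h against 0.523, 0.912 and 0.9 CPM at 0 h, a difference of 4.68 ± 0.39 (adjusted p = 2.74e-07). Dusp2, of the same family, rose in mural cells alone, with a mean of 0.202 CPM in cumulus cells at 12 h against 0.19 at 0 h, and 6.90 CPM in mural cells at 12 h against 0.358 at 0 h. Spry1, a brake on receptor tyrosine kinase signalling, had 3 counts in the 3 cumulus libraries of 12 h and 426 at 0 h, and is oocyte-following, as is Dusp14. Differences were -4.25 ± 0.95 for Dusp2, -6.58 ± 0.94 for Spry1 and -4.09 ± 0.88 for Dusp14, and with the oocyte marker sum as a covariate the calls for Dusp2, Spry1 and Dusp14 ended. Without replicate 2 of cumulus cells at 12 h the Spry1 value was -9.93.

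The matrix of the expanding cumulus moved further in cumulus cells. Of 17 expansion matrix genes, 10 were called higher and 0 lower by edgeR, against 24.3% and 25.6% of all genes, and their median difference was 1.03. With the oocyte marker sum as a covariate 5 were higher and 0 lower, and without replicate 1 of cumulus cells at 0 h 1 was called lower. In cumulus cells 10 rose and 2 fell, against 33.6% and 36.4% of all genes, and in mural cells 9 rose and 2 fell, against 25.5% and 24.3%. Ptx3, pentraxin 3, which organizes the hyaluronan matrix, had 989.9, 683 and 831 CPM in cumulus cells at 12 h against 0.142, 0.313 and 0.285 CPM at 0 h. Mural levels were 27.3, 10.8 and 13.4 CPM at 12 h against 0.201, 0.391 and 0.63 CPM at 0 h. Both cell types started below 1 CPM and cumulus cells ended far above mural cells, a difference of 6.25 ± 1.03 (adjusted p = 0.000868). Tnfaip6, which transfers heavy chains onto hyaluronan, had 1100.4, 844 and 995 CPM in cumulus cells at 12 h against 0.396, 0.501 and 0.571 CPM at 0 h. Values in mural cells were 149, 129 and 127 CPM at 12 h against 1.25, 0.886 and 1.19 CPM at 0 h, a difference of 4.04 ± 0.24 (adjusted p = 4.58e-09). Has2, the hyaluronan synthase of cumulus cells, averaged 60.6 ± 7.21 CPM at 12 h and 1.85 ± 0.984 CPM at 0 h for cumulus cells, and 6.55 ± 2.51 CPM at 12 h and 0.698 ± 0.134 CPM at 0 h for mural cells (1.85 ± 0.53, adjusted p = 0.0132).

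Versican, Vcan, rose in both cell types and further in cumulus cells (1.03 ± 0.21, adjusted p = 0.000686), yet its level was higher in mural cells at both times, with means of 1494 ± 167 CPM at 12 h and 209.9 ± 43.5 CPM at 0 h for cumulus cells, and 4948 ± 597 CPM at 12 h and 1417 ± 151 CPM at 0 h for mural cells. The log2 gap between the cell types, cumulus minus mural, was -1.73 at 12 h and -2.76 at 0 h. Biglycan, Bgn, rose in cumulus cells alone (2.74 ± 0.34, adjusted p = 1.48e-05) and remained below mural levels at 12 h. Fibronectin, Fn1, rose in both (2.48 ± 0.26, adjusted p = 9.36e-06). Calls for Has2 and Vcan ended with the oocyte marker sum as a covariate, and calls for Ptx3 and Bgn by limma's voom. Spp1, osteopontin, changed by 13.05 ± 0.32 in cumulus cells and 11.21 ± 0.30 in mural cells, a difference of 1.84 ± 0.34 (adjusted p = 0.000441), with 14719, 14689 and 13928 CPM in cumulus cells at 12 h against 3517, 3896 and 4294 CPM in mural cells at 12 h.

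Proteases and their inhibitors were divided, with 7 higher and 8 lower of 20 tested, against 24.3% and 25.6% of all genes. Their median of 0.37 ran over 0.14 to 0.73 when single libraries were left out. Adamts1, the protease that cleaves versican, had 230.3, 184 and 174 CPM in cumulus cells at 12 h against 38.5, 22.2 and 24.6 CPM at 0 h. The mural values were 4509, 5078 and 4979.8 CPM at 12 h against 173, 139 and 156 CPM at 0 h. It rose in both cell types and further in mural cells, where all libraries of 12 h were far above those of cumulus cells (-2.17 ± 0.25, adjusted p = 6.44e-06). Mmp14, a membrane-bound matrix metalloproteinase, had 913, 823 and 919.8 CPM in cumulus cells at 12 h against 57.8, 40.9 and 41.4 CPM at 0 h. For mural cells these were 336, 346 and 367 CPM at 12 h against 220.3, 218 and 208 CPM at 0 h. Cumulus cells started below mural cells and ended above them, a difference of 3.55 ± 0.16 (adjusted p = 2.84e-10). Timp3, an inhibitor of metalloproteinases, differed by 4.24 ± 0.28 (adjusted p = 5.2e-08) and Plaur, the urokinase receptor, by 3.44 ± 0.55 (adjusted p = 0.000196). Plat, tissue plasminogen activator and oocyte-following, differed by -3.83 ± 0.93 (adjusted p = 0.00841), a call that ended with the oocyte marker sum as a covariate.

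Prostaglandin genes were called 5 higher and 4 lower of 17 tested, near the 24.3% and 25.6% of all genes. Their median of -0.01 changed sign in several of the other fits. Pla2g4a, the phospholipase that frees arachidonic acid, had 550.4, 550.4 and 521 CPM in cumulus cells at 12 h against 97.0, 71.7 and 75.8 CPM at 0 h. Libraries of mural cells had 72.2, 78.1 and 81.3 CPM at 12 h against 86.1, 82.8 and 75.2 CPM at 0 h. The 0 h levels of the cell types and the mural libraries of 12 h lay together and the cumulus libraries of 12 h stood apart, a difference of 2.81 ± 0.15 (adjusted p = 1.06e-09). For Ptger2, a receptor of prostaglandin E2 on cumulus cells, the cumulus libraries of 12 h also stood apart (3.77 ± 0.29, adjusted p = 5.52e-08). Its cumulus libraries of 0 h, at 1.36, 1.21 and 1.47 CPM, lay below the mural libraries of 0 h, at 3.16, 2.61 and 3.71 CPM. Hpgd, which breaks prostaglandins down, differed by -2.397 ± 0.16 (adjusted p = 1.43e-08), and Ptgis, which makes prostacyclin, by -2.77 ± 0.14 (adjusted p = 1.06e-09). Ptgs2, the induced enzyme of prostaglandin synthesis, had 1507, 1068 and 1216 CPM in cumulus cells at 12 h against 1.42, 0.209 and 0.285 CPM at 0 h. In mural cells it had 464, 485 and 462 CPM at 12 h against 0.644, 0.678 and 1.24 CPM at 0 h. Its difference of 1.97 ± 0.67 (adjusted p = 0.0352) was called, but the call ended in 9 of the 12 fits that left out 1 library, with values of 1.498 to 2.10 there, and also by DESeq2, by limma's voom, with no filter on low counts and with the oocyte marker sum as a covariate. Without replicate 1 of cumulus cells at 0 h it was 3.23.

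Regulators of the ovulatory response were called 8 higher and 6 lower of 19 tested, against 24.3% and 25.6% of all genes. Nearly all rose in both cell types, 18 in cumulus cells and 17 in mural cells, against 33.6% and 25.5% of all genes. The transcription factor gene Runx1 had 738, 630.0 and 651 CPM in cumulus cells at 12 h against 44.2, 52.6 and 47.5 CPM at 0 h. At 12 h mural cells had 615, 678 and 582 CPM, against 23.2, 23.4 and 19.8 CPM at 0 h. Levels at 12 h were close and the difference of -1.01 ± 0.14 (adjusted p = 2.41e-05) lay in the higher cumulus level at 0 h. Runx2 showed the reverse, with 443, 539 and 424 CPM in cumulus cells at 12 h against 1.53, 1.59 and 1.14 CPM at 0 h. Mural cells had 568, 700.2 and 648 CPM at 12 h against 5.11, 12.5 and 14.1 CPM at 0 h, and the difference was 2.44 ± 0.48 (adjusted p = 0.00208). Nr4a3, a nuclear receptor, differed by 3.28 ± 0.55 (adjusted p = 0.000146). Sult1e1, the estrogen sulfotransferase, had 5310 counts in cumulus cells at 12 h against 1 at 0 h, and 641 in mural cells at 12 h against 3 at 0 h. Its ratios were 6404 (95% exact counting interval 1149 to 253004) in cumulus cells and 258 (87.7 to 1252) in mural cells, intervals that overlap and cover counting error only. Its call (adjusted p = 0.00722) ended with all 18 libraries in the fit, by limma's voom and without replicate 1 of mural cells at 0 h, where the difference was 3.59 instead of 4.34. Calls for Runx2 and Nr4a3 ended with the oocyte marker sum as a covariate, and that for Runx2 also by voom.

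Cebpb, Pgr, Edn2 and Il6 were not called. Cebpb, a transcription factor needed for ovulation, differed by -0.06 ± 0.14 (adjusted p = 0.732), and its sign turned in 3 fits without 1 library. Pgr, the progesterone receptor, differed by 1.42 ± 0.60 (adjusted p = 0.0623), and was called without replicate 1 of cumulus cells at 0 h (1.68) and without replicate 1 of mural cells at 12 h (1.93). Its levels were 1.15, 0.686 and 0.726 CPM in cumulus cells at 12 h against 0.198, 0.0835 and 0.166 CPM at 0 h. The mural libraries held 7.26, 2.43 and 4.14 CPM at 12 h against 2.27, 2.03 and 2.14 CPM at 0 h. For Edn2, endothelin 2, the cumulus libraries held 387 counts at 12 h and 2 at 0 h, and the level at 12 h was 4.70, 3.31 and 3.23 CPM in cumulus cells against 369, 371 and 301 CPM in mural cells. Its difference of -2.996 ± 1.96 (adjusted p = 0.229) thus rested on few counts at 0 h. It was called by DESeq2 (adjusted p = 0.0201), and was -0.42 without replicate 3 of cumulus cells at 0 h. Il6, interleukin 6, differed by -1.04 ± 0.97 (adjusted p = 0.397), with the opposite sign, 0.28, without replicate 1 of cumulus cells at 0 h. Snap25, of vesicle release, rose in both cell types and further in mural cells (-1.65 ± 0.53, adjusted p = 0.0192), but the call for Snap25 ended with the oocyte marker sum as a covariate, by voom and without replicate 1 (-1.58) or 2 (-0.96) of cumulus cells at 0 h or replicate 2 of mural cells at 0 h (-1.51).

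Immediate early factors of the AP-1 and EGR families answer growth factor signals. They were called 6 higher and 2 lower of 19 tested, against 24.3% and 25.6% of all genes. Their median of 0.48 was 1.68 without replicate 1 of cumulus cells at 0 h, 0.15 without replicate 2 of that group and 0.014 without replicate 1 of mural cells at 0 h. With the oocyte marker sum as a covariate it was -1.56, with 2 higher and 7 lower. Egr3 had 289, 215 and 237 CPM in cumulus cells at 12 h against 0.142, 0 and 0 CPM at 0 h. In mural libraries, 52.9, 62.0 and 53.8 CPM were counted at 12 h against 0.745, 0.469 and 0.787 CPM at 0 h, a difference of 6.11 ± 0.61 (adjusted p = 5.41e-06) that was 9.89 without replicate 1 of cumulus cells at 0 h. Fosl2, an AP-1 subunit, had 768, 721 and 679 CPM in cumulus cells at 12 h against 93.9, 95.1 and 75.1 CPM at 0 h. Mural levels were 580.3, 601 and 560.5 CPM at 12 h against 562, 544 and 574 CPM at 0 h. Mural libraries overlapped between the times and cumulus libraries did not (2.99 ± 0.13, adjusted p = 2.32e-10). Klf6 differed by 2.09 ± 0.28 (adjusted p = 9.9e-05) and Egr2 by 3.29 ± 0.98 (adjusted p = 0.0209). Calls for Egr2 and Klf6 ended with the covariate, and that for Egr2 also without replicate 1 of mural cells at 0 h (2.50).

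Most genes of progesterone synthesis rose further in cumulus cells. Of 15 genes 10 were called higher and 0 lower by edgeR, against 24.3% and 25.6% of all genes, with a median of 1.003. In cumulus cells 14 rose, against 33.6% of all genes. In mural cells 11 rose and 2 fell, against 25.5% and 24.3% of all genes. With the oocyte marker sum as a covariate 3 were higher and 2 lower, with a median of 0.56. Hsd3b1, which turns pregnenolone into progesterone, had 872, 840.1 and 970.0 CPM in cumulus cells at 12 h against 374, 312 and 228 CPM at 0 h. Values in mural cells were 1371, 1377 and 1353 CPM at 12 h against 4789.8, 4516 and 3839.5 CPM at 0 h. Mural cells kept the higher level at 12 h, and the gap between the cell types shrank to -0.61 on the log2 scale at 12 h against -3.84 at 0 h (cumulus minus mural), a difference of 3.23 ± 0.21 (adjusted p = 9.08e-09). Cyp11a1, the enzyme that starts steroid synthesis from cholesterol, averaged 363 ± 19.4 CPM at 12 h and 11.6 ± 7.36 CPM at 0 h for cumulus cells, and 4555 ± 531 CPM at 12 h and 758 ± 92.1 CPM at 0 h for mural cells (2.38 ± 0.62, adjusted p = 0.011). The theca marker Cyp17a1 was also lower in mural cells at 12 h than at 0 h, as given above, and its part in these genes was not tested.

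Star, which delivers cholesterol to the mitochondria, rose in both cell types with no called difference (0.53 ± 0.25, adjusted p = 0.0991), though it was called without replicate 2 of cumulus cells at 12 h (0.66), replicate 2 of mural cells at 12 h (0.69) or replicate 1 of mural cells at 0 h (0.73). Akr1c18, which inactivates progesterone, reached overlapping levels in both cell types at 12 h and differed by 2.03 ± 0.31 (adjusted p = 0.000179). Hsd3b6 was under 1 CPM in every group mean (3.07 ± 0.78, adjusted p = 0.00409). Calls for Cyp11a1, Akr1c18 and Hsd3b6 ended with the oocyte marker sum as a covariate. Lysosome and proton pump genes were called 15 higher and 2 lower of 20 tested, against 24.3% and 25.6% of all genes. Their median was 0.65. In cumulus cells 18 rose, and in mural cells 13 rose and 2 fell. With the covariate 7 were higher and 2 lower, with a median of 0.20. Among them, the protease gene Ctsb differed by 2.20 ± 0.14 (adjusted p = 8.45e-09), the lysosome regulator Tfeb by 1.998 ± 0.26 (adjusted p = 1.55e-05), the membrane protein gene Lamp2 by 1.07 ± 0.11 (adjusted p = 1.48e-06) and Ctsd by 1.05 ± 0.11 (adjusted p = 1.98e-06). For Lamp2 the cell types overlapped at 12 h and did not at 0 h.

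Genes of the growing follicle and of granulosa identity fell further in cumulus cells. Of 16 estradiol and follicular-phase genes, 3 were called higher and 10 lower, against 24.3% and 25.6% of all genes. Their median was -0.82. In cumulus cells 14 fell and in mural cells 13, against 36.4% and 24.3% of all genes. Fshr, the follicle-stimulating hormone receptor gene, had 4.37, 4.50 and 7.40 CPM in cumulus cells at 12 h against 328, 305 and 297 CPM at 0 h. The mural values were 30.6, 28.5 and 32.7 CPM at 12 h against 261, 269.7 and 276 CPM at 0 h. Cumulus cells had the slightly higher level at 0 h and the lower one at 12 h, a difference of -2.69 ± 0.20 (adjusted p = 6.22e-08). Amh, anti-Müllerian hormone, had 14.96, 11.5 and 7.83 CPM in cumulus cells at 12 h against 214, 213 and 93.5 CPM at 0 h. For mural cells these were 223, 118 and 218 CPM at 12 h against 150.5, 162 and 197 CPM at 0 h. Amh fell in cumulus cells alone (-4.06 ± 0.56, adjusted p = 0.000344). Nppc, the peptide ligand that holds the oocyte in meiotic arrest, differed by -2.23 ± 0.59 (adjusted p = 0.0108) and its receptor gene Npr2 by -1.16 ± 0.15 (adjusted p = 1.73e-05).

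The inhibin and activin subunit genes went the other way. Inhba had 1243, 832 and 1022 CPM in cumulus cells at 12 h against 3519, 2579 and 2434 CPM at 0 h. Libraries of mural cells had 675, 379.8 and 560.4 CPM at 12 h against 7746, 6947 and 5757 CPM at 0 h. It fell in both cell types and further in mural cells, so that cumulus libraries lay below mural libraries at 0 h and above them at 12 h (2.20 ± 0.31, adjusted p = 6.36e-05). Inha fell in both as well, with overlapping levels at 12 h (1.25 ± 0.22, adjusted p = 0.000245). Cyp19a1, the aromatase that makes estradiol, fell by a similar amount in both, -3.66 ± 0.27 in cumulus cells and -3.89 ± 0.26 in mural cells, with a difference of 0.23 ± 0.35 (adjusted p = 0.615) that was not called. Lhcgr was not called within either cell type, and its difference was -0.83 ± 0.66 (adjusted p = 0.337). Its level was 4.98, 3.76 and 3.55 CPM in cumulus cells at 12 h against 14.2, 9.86 and 2.50 at 0 h, and 510.0, 579.8 and 600.1 CPM in mural cells at 12 h against 711, 755 and 585 at 0 h. Without replicate 3 of cumulus cells at 0 h, which was the lowest of its group, Lhcgr was called, at -1.27, and without replicate 1 it was -0.32. Calls for Amh, Nppc, Inhba and Inha ended with the oocyte marker sum as a covariate, where the sign of Cyp19a1 turned, and that for Nppc ended by voom.

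Of 12 granulosa identity factors, 2 were called higher and 7 lower, against 24.3% and 25.6% of all genes, with a median of -0.79. Foxl2, the factor that keeps granulosa cells female, had 49.7, 61.7 and 55.7 CPM in cumulus cells at 12 h against 568, 464 and 446 CPM at 0 h. In mural cells it had 126, 120.1 and 126 CPM at 12 h against 463, 433 and 351 CPM at 0 h (-1.40 ± 0.16, adjusted p = 4.25e-06). Nr5a2, known as LRH-1, had 251, 273 and 262 CPM in cumulus cells at 12 h against 695, 624 and 574 CPM at 0 h. At 12 h mural cells had 1467, 1627 and 1592 CPM, against 1529, 1429.8 and 1192 CPM at 0 h. Nr5a2 fell in cumulus cells alone (-1.44 ± 0.15, adjusted p = 1.26e-06). Wt1 fell in cumulus cells and rose in mural cells (-3.96 ± 0.49, adjusted p = 5.5e-05), and Nr0b1, known as DAX-1, differed by -3.89 ± 0.79 (adjusted p = 0.000729), a call that ended with the oocyte marker sum as a covariate. Without replicate 1 of cumulus cells at 12 h its value was -7.62.

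Most unfolded protein response genes rose in cumulus cells and fell in mural cells. Of its 19 genes, which fold and check proteins in the endoplasmic reticulum, 16 were called higher and 0 lower by edgeR, against 24.3% and 25.6% of all genes, with a median of 1.27. With the oocyte marker sum as a covariate 6 were higher and 1 lower, with a median of 0.75. The cell types moved in opposite directions: 15 members rose and 1 fell in cumulus cells, and 2 rose and 12 fell in mural cells. Hyou1, a chaperone of the endoplasmic reticulum, had 1389, 1382 and 1274 CPM in cumulus cells at 12 h against 437, 364 and 347 CPM at 0 h. Mural cells had 688, 611 and 694 CPM at 12 h against 1064, 914 and 926 CPM at 0 h. Cumulus libraries were the lowest group at 0 h and the highest at 12 h, a difference of 2.36 ± 0.15 (adjusted p = 6.99e-09). Calr, calreticulin, had 2017, 1917 and 1969 CPM in cumulus cells at 12 h against 1088, 899 and 833 CPM at 0 h. The mural libraries held 1006, 916 and 1012 CPM at 12 h against 1682, 1623 and 1471 CPM at 0 h (1.77 ± 0.15, adjusted p = 1.52e-07). Pdia3, which forms disulfide bonds, differed by 1.67 ± 0.15 (adjusted p = 2.49e-07). Xbp1, the transcription factor of this response, differed by 1.79 ± 0.19 (adjusted p = 2.34e-06), and Xbp1 alone of the 4 lost its call with the oocyte marker sum as a covariate.

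Collagens and laminins were called 12 higher and 1 lower of 17 tested, against 24.3% and 25.6% of all genes. Their median was 1.84, and 2 were lower without replicate 1 of cumulus cells at 0 h. Col4a1 and Col4a2, the chains of basement membrane collagen IV, rose in both cell types. Col4a1 had 1365, 1122 and 1406 CPM in cumulus cells at 12 h against 3.91, 4.64 and 4.23 CPM at 0 h. In mural libraries, 2036, 2292 and 2682 CPM were counted at 12 h against 242, 234 and 383 CPM at 0 h. Its cumulus level at 12 h remained below the mural level, and its difference was 5.22 ± 0.27 (adjusted p = 3.29e-09). Col4a2 differed by 4.66 ± 0.25 (adjusted p = 7.93e-09) and Col18a1, whose end fragment is endostatin, by 5.89 ± 0.63 (adjusted p = 6.69e-05). Col6a2 rose in cumulus cells and fell in mural cells (4.68 ± 0.35, adjusted p = 1.8e-06). The stroma markers Col1a1 and Col3a1 were at 3.07 to 5.46 and 4.06 to 4.95 CPM in cumulus cells at 12 h, and at 123 to 211 and 185 to 286 CPM in mural cells at 12 h, and the part of stroma in the mural values was not tested.

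**Figure D4:**
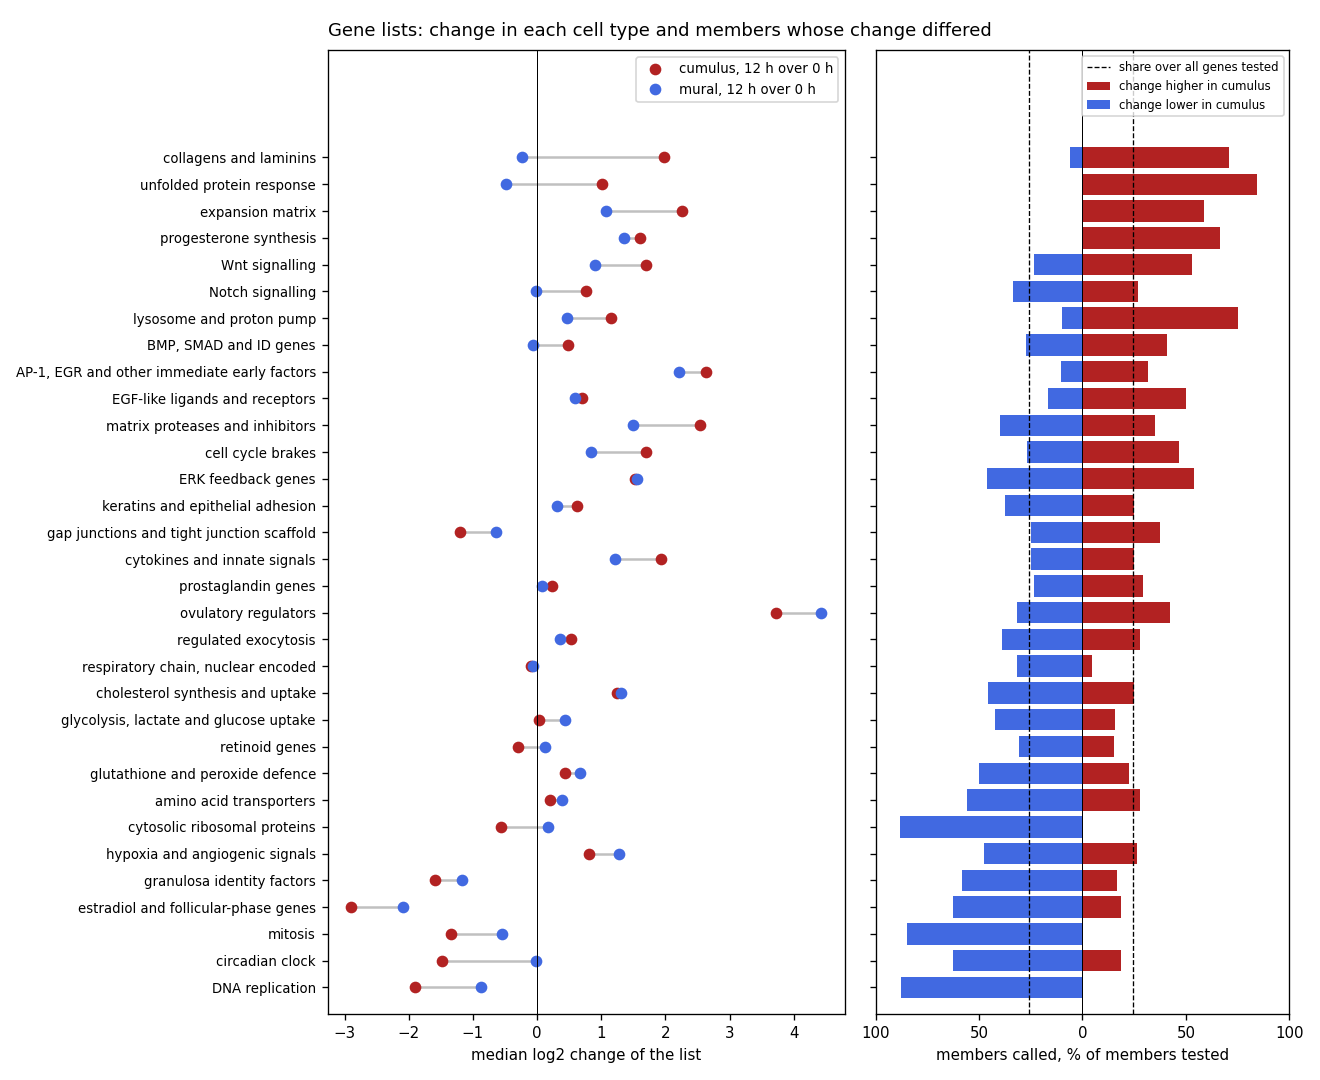
For each gene list, the left panel gives the median log2 change between 12 h and 0 h in cumulus cells (red) and mural cells (blue), and the right panel the percent of tested members called higher (red) and lower (blue) for the difference, with dashed lines at the 24.3% and 25.6% of all genes. DNA replication, mitosis and ribosomal protein genes extend to the left alone, and the unfolded protein response, expansion matrix and progesterone synthesis genes to the right alone.

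Cell cycle genes fell further in cumulus cells. Of 24 DNA replication genes 0 were called higher and 21 lower, with a median of -1.02. Of 20 mitosis genes 0 were called higher and 17 lower by edgeR, with a median of -0.84. Over all genes 24.3% were called higher and 25.6% lower. All 24 and all 20 fell in cumulus cells, where 36.4% of all genes fell. In mural cells 23 and 15 fell, where 24.3% of all genes did. Rrm2, a subunit of the enzyme that makes deoxynucleotides, had 37.5, 33.8 and 35.2 CPM in cumulus cells at 12 h against 155, 131 and 133 CPM at 0 h. Mural levels were 226, 251 and 208 CPM at 12 h against 119.9, 109 and 89.1 CPM at 0 h. It fell in cumulus cells and was the one DNA replication gene that rose in mural cells (-3.08 ± 0.16, adjusted p = 6.69e-10). Cdc6, which loads the replicative helicase, differed by -1.79 ± 0.28 (adjusted p = 0.000121), and Gins1 and Tyms by -1.74 ± 0.17 and -1.37 ± 0.17. Bub1b, of the spindle checkpoint, had 59.2, 64.2 and 56.9 CPM in cumulus cells at 12 h against 219, 287 and 312 CPM at 0 h. Values in mural cells were 122, 112 and 121 CPM at 12 h against 150.0, 134 and 138 CPM at 0 h (-1.93 ± 0.15, adjusted p = 7.89e-08). The mitotic kinase gene Aurka differed by -1.28 ± 0.10 (adjusted p = 1.05e-07), and Birc5 and Ccna2 by -1.48 ± 0.14 and -1.25 ± 0.16. At 0 h the cumulus libraries lay above the mural libraries for Bub1b, Aurka and Ccna2. In the 3 cumulus libraries of 4 h, scaled over all 18 libraries, Bub1b was at 240, 193 and 713 CPM. The oocyte marker sum there was 2434, 1260 and 7805 CPM. Birc5 and Aurka were also highest in replicate 3 of that group, and Ccna2 was not. No mitosis gene was oocyte-following by the rule, and the part of oocyte RNA in these values was not tested.

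Cell cycle brakes were called 7 higher and 4 lower of 15 tested, against 24.3% and 25.6% of all genes. Their median of 0.35 was 0.20 without replicate 2 of cumulus cells at 0 h or replicate 1 of mural cells at 0 h, and -0.48 with the oocyte marker sum as a covariate. Gadd45a, a stress gene that holds the cell cycle, had 204, 280.2 and 222 CPM in cumulus cells at 12 h against 9.29, 5.14 and 7.82 CPM at 0 h. The mural values were 42.4, 39.3 and 36.4 CPM at 12 h against 6.98, 8.24 and 7.18 CPM at 0 h. The cell types overlapped at 0 h and were apart at 12 h (2.60 ± 0.25, adjusted p = 4.61e-06). Ccng2 rose in cumulus cells and fell in mural cells (2.20 ± 0.16, adjusted p = 4.71e-08). The kinase inhibitor gene Cdkn2b differed by 3.09 ± 0.65 (adjusted p = 0.00103) and Cdkn1c by -2.06 ± 0.33 (adjusted p = 9.42e-05), and the calls for Cdkn2b and Cdkn1c ended with the oocyte marker sum as a covariate.

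Most cytosolic ribosomal protein genes moved down in cumulus cells relative to mural cells, by small amounts. Of 25 cytosolic ribosomal protein genes 0 were called higher and 22 lower by edgeR, against 24.3% and 25.6% of all genes. Their median was -0.68. In cumulus cells 21 fell, against 36.4% of all genes, while 7 rose and 1 fell in mural cells. Rps19 had 409, 380.1 and 397 CPM in cumulus cells at 12 h against 691, 541 and 522 CPM at 0 h. For mural cells these were 248, 249 and 221 CPM at 12 h against 207, 186 and 189.9 CPM at 0 h (-0.86 ± 0.14, adjusted p = 0.000138). Rpl27 and Rpl32 differed by -1.21 ± 0.20 and -0.89 ± 0.13. These genes have many processed pseudogenes, and how the counting shared reads between copies was not given, so single values are uncertain. All 13 mitochondrially encoded messages were called lower, with a median difference of -1.43 and median changes of -1.69 in cumulus cells and -0.29 in mural cells, beside the library shares given above. Nuclear genes of the respiratory chain were called 1 higher and 7 lower of 22 tested, against 24.3% and 25.6% of all genes. Their median was -0.18, and 14 were not called. With the oocyte marker sum as a covariate 0 were higher and 14 lower. Without replicate 1 of cumulus cells at 0 h, 4 instead of 1 of them were called higher. The largest differences there were -0.74 ± 0.13 for Cox6c, -0.64 ± 0.15 for Ndufb7, -0.59 ± 0.13 for Cox7a2 and -0.58 ± 0.13 for Cox5a.

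Signalling families between cells were divided among their members. Of 22 BMP, SMAD and ID genes tested, 9 were called higher and 6 lower, against 24.3% and 25.6% of all genes. Their median was 0.49. With the oocyte marker sum as a covariate 3 were higher and 5 lower. Grem1, gremlin, a secreted inhibitor of BMPs, had 378, 392 and 342 CPM in cumulus cells at 12 h against 218, 160.3 and 141 CPM at 0 h. Libraries of mural cells had 19.4, 15.4 and 16.95 CPM at 12 h against 607, 562 and 489.7 CPM at 0 h. It rose in cumulus cells and fell in mural cells, and the order of the cell types turned between the times (6.10 ± 0.21, adjusted p = 7.3e-11). Id2, a target of BMP signals, had 64.7, 59.2 and 72.0 CPM in cumulus cells at 12 h against 26.9, 27.2 and 21.9 CPM at 0 h. In mural cells it had 659, 785 and 698 CPM at 12 h against 14.1, 13.9 and 13.2 CPM at 0 h. It rose in both and further in mural cells, and again the order turned (-4.34 ± 0.15, adjusted p = 3.26e-11). Noggin, Nog, another BMP inhibitor, fell in cumulus cells alone (-3.55 ± 0.54, adjusted p = 5.88e-05), and the receptor gene Acvr1 rose in cumulus cells alone (2.47 ± 0.15, adjusted p = 3.77e-09).

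Wnt genes were called 9 higher and 4 lower of 17 tested, against 24.3% and 25.6% of all genes, with a median of 0.97. With the oocyte marker sum as a covariate 2 were higher and 2 lower. The ligand gene Wnt11 averaged 38.3 ± 7.60 CPM at 12 h and 0.0656 ± 0.0587 CPM at 0 h for cumulus cells, and 1.63 ± 0.377 CPM at 12 h and 0.203 ± 0.272 CPM at 0 h for mural cells (6.17 ± 1.15, adjusted p = 0.00132). Its difference was 4.10 without replicate 3 of mural cells at 0 h. Sfrp4, a secreted Wnt antagonist, had 667, 616 and 632 CPM in cumulus cells at 12 h against 1.19, 4.13 and 0.927 CPM at 0 h. At 12 h mural cells had 1906, 2308 and 2173 CPM, against 64.3, 179 and 156 CPM at 0 h, and its level was higher in mural cells at both times (4.21 ± 0.71, adjusted p = 0.00112). Wnt2 differed by 3.51 ± 0.85 (adjusted p = 0.00294) and Lef1, oocyte-following, by -2.66 ± 0.88 (adjusted p = 0.0194). Calls for Wnt2 and Lef1 ended with the oocyte marker sum as a covariate, and that for Lef1 also without replicate 1 (-2.28) or 2 (-2.42) of mural cells at 0 h. Notch genes were called 4 higher and 5 lower of 15 tested, against 24.3% and 25.6% of all genes. With the oocyte marker sum as a covariate 4 were higher and 1 lower. The receptor gene Notch1 rose in cumulus cells and fell in mural cells, with overlapping levels at 12 h (3.95 ± 0.31, adjusted p = 8.31e-08). Its ligand gene Dll1 also rose in cumulus cells and fell in mural cells, at no more than 2.45 CPM in any library (4.51 ± 0.75, adjusted p = 0.000134). Jag2, another ligand and oocyte-following, was lower (-3.15 ± 0.53, adjusted p = 0.000771), a call that ended with the covariate. The number of Notch genes called lower was 3 in some fits that left out 1 library.

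Gap junction and tight junction scaffold genes were called 3 higher and 2 lower of 8 tested, against 24.3% and 25.6% of all genes. With the oocyte marker sum as a covariate 0 were higher and 0 lower. Gja1, connexin 43, which couples granulosa cells, fell in both cell types and further in mural cells, with 1369, 1369.7 and 1317 CPM in cumulus cells at 12 h against 4165, 3268 and 3000.0 CPM at 0 h. Mural cells had 1276, 931 and 1281 CPM at 12 h against 5688, 5588 and 4971 CPM at 0 h (0.86 ± 0.20, adjusted p = 0.00207). Gja4, connexin 37, through which oocytes and cumulus cells are coupled and which is oocyte-following, differed by -7.26 ± 1.31 (adjusted p = 0.00181). Calls for Gja1 and Gja4 ended with the oocyte marker sum as a covariate. Genes of regulated exocytosis were called 5 higher and 7 lower of 18 tested, against 24.3% and 25.6% of all genes. Syt7, a calcium sensor of vesicle fusion, fell in both cell types and further in cumulus cells (-1.83 ± 0.23, adjusted p = 2.59e-05). Between 3 and 7 exocytosis genes were called higher and between 4 and 6 lower when 1 library was left out, and the list is given no direction.

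Circadian clock genes were called 3 higher and 10 lower of 16 tested, against 24.3% and 25.6% of all genes. Their median was -0.95, against -0.04 over all genes. With the oocyte marker sum as a covariate 0 were higher and 3 lower, with a median of -0.65. The clock repressor gene Per2 had 1.96, 1.91 and 1.29 CPM in cumulus cells at 12 h against 7.33, 6.68 and 9.42 CPM at 0 h. The mural libraries held 23.2, 22.5 and 20.3 CPM at 12 h against 23.4, 30.4 and 22.7 CPM at 0 h. Per2 fell in cumulus cells alone (-1.97 ± 0.25, adjusted p = 9.36e-06). Nr1d1, known as REV-ERBα, differed by -1.89 ± 0.24 (adjusted p = 1.07e-05), Bhlhe41 by -4.52 ± 0.51 (adjusted p = 3.08e-06) and Npas2, oocyte-following, by -3.81 ± 0.60 (adjusted p = 0.000176). Calls for Nr1d1 and Npas2 ended with the oocyte marker sum as a covariate. Retinoid genes were called 2 higher and 4 lower of 13 tested, against 24.3% and 25.6% of all genes. They included Aldh1a3 and Stra6, described above. Rbp4, the plasma carrier of retinol, differed by 3.24 ± 0.99 (adjusted p = 0.0144). The Rbp4 call ended with the covariate, and its value was 5.14 without replicate 3 of cumulus cells at 0 h.

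Hypoxia and angiogenic signals were called 5 higher and 9 lower of 19 tested, against 24.3% and 25.6% of all genes. Their median of -0.74 was -0.31 without replicate 1 of cumulus cells at 0 h. Epas1, which encodes HIF-2α, had 28.3, 29.8 and 21.7 CPM in cumulus cells at 12 h against 435, 341 and 335 CPM at 0 h. In mural libraries, 293, 305 and 259 CPM were counted at 12 h against 204, 170.1 and 179 CPM at 0 h. It fell in cumulus cells and rose in mural cells (-4.43 ± 0.19, adjusted p = 1.84e-10). Angpt1, angiopoietin 1, rose in cumulus cells alone (3.02 ± 0.41, adjusted p = 2.1e-05). Glycolysis, lactate and glucose uptake genes were called 3 higher and 8 lower of 19 tested, against 24.3% and 25.6% of all genes. The lower count ranged over 5 to 9 without single libraries. With the oocyte marker sum as a covariate 0 were higher and 13 lower. Ldha, lactate dehydrogenase A, had 1210.3, 1133 and 1189 CPM in cumulus cells at 12 h against 1879.5, 1348 and 1380.0 CPM at 0 h. Mural levels were 752, 766 and 715 CPM at 12 h against 567, 485 and 445 CPM at 0 h. Cumulus cells had the higher level at both times, and the gap was smaller at 12 h (-0.96 ± 0.17, adjusted p = 0.000304). Pfkp, of phosphofructokinase, differed by -1.53 ± 0.16 (adjusted p = 1.55e-06) and the glucose transporter gene Slc2a1 by 0.93 ± 0.16 (adjusted p = 0.000199), a call that ended with the oocyte marker sum as a covariate.

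Cholesterol synthesis and uptake genes were called 6 higher and 11 lower of 24 tested, against 24.3% and 25.6% of all genes. Their median was -0.24. With the oocyte marker sum as a covariate 0 were higher and 17 lower. Without replicate 2 of cumulus cells at 0 h, 3 instead of 6 were called higher. Nearly all rose in both cell types, 21 in cumulus cells and 22 in mural cells. Insig1, the sterol sensor, had 255, 241 and 231 CPM in cumulus cells at 12 h against 208, 182 and 168 CPM at 0 h. Values in mural cells were 402, 443 and 408 CPM at 12 h against 119, 107 and 92.7 CPM at 0 h. Insig1 rose further in mural cells (-1.59 ± 0.14, adjusted p = 2.58e-07). Dhcr7, the last enzyme of one branch of the pathway, differed by -1.35 ± 0.15 (adjusted p = 2.55e-06), and Mvd and Mvk of the mevalonate steps by -1.17 ± 0.23 and -1.10 ± 0.16.

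Glutathione and peroxide defence genes were called 5 higher and 11 lower of 22 tested, against 24.3% and 25.6% of all genes. Their median was -0.43. With the oocyte marker sum as a covariate 0 were higher and 15 lower. Gpx3, a secreted glutathione peroxidase, had 126, 126 and 116 CPM in cumulus cells at 12 h against 66.3, 66.9 and 53.2 CPM at 0 h. The mural values were 253, 291 and 208 CPM at 12 h against 36.7, 37.7 and 44.5 CPM at 0 h (-1.68 ± 0.17, adjusted p = 1.31e-06). Prdx2, a peroxiredoxin, differed by -1.54 ± 0.13 (adjusted p = 1.98e-07) and Gstm2, a glutathione transferase, by -1.43 ± 0.16 (adjusted p = 3.11e-06). Amino acid transporters were called 5 higher and 10 lower of 18 tested, against 24.3% and 25.6% of all genes, with a median of -0.65. Beside Slc38a3, described above, Slc7a8 rose in both cell types and further in cumulus cells (2.73 ± 0.14, adjusted p = 5.86e-10) and Slc7a3 in cumulus cells alone (2.72 ± 0.36, adjusted p = 1.36e-05). Slc7a11, the cystine transporter, rose in both and further in mural cells (-2.43 ± 0.59, adjusted p = 0.00853), a call that ended with the oocyte marker sum as a covariate, where its sign turned.

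Cytokines and innate signals were called 5 higher and 5 lower of 20 tested, near the 24.3% and 25.6% of all genes. Their median of 0.11 took either sign in the other fits. Il33, an alarmin of the interleukin 1 family, had 91.7, 59.9 and 72.7 CPM in cumulus cells at 12 h against 0.0283, 0.0418 and 0.0238 CPM at 0 h. For mural cells these were 6.18, 7.29 and 5.79 CPM at 12 h against 0.0403, 0.417 and 0.292 CPM at 0 h (6.32 ± 0.84, adjusted p = 6.44e-05), a call that was lost by limma's voom. Keratins and epithelial adhesion genes were called 4 higher and 6 lower of 16 tested, against 24.3% and 25.6% of all genes. Krt7 fell in cumulus cells and rose in mural cells at levels under 10 CPM (-4.85 ± 0.44, adjusted p = 3.32e-07). Cldn1, a tight junction claudin, averaged 0.551 ± 0.0609 CPM at 12 h and 0.199 ± 0.189 CPM at 0 h for cumulus cells, and 21.6 ± 2.31 CPM at 12 h and 0.747 ± 0.299 CPM at 0 h for mural cells (-3.49 ± 0.63, adjusted p = 0.000382), and its call ended with the oocyte marker sum as a covariate. Without replicate 2 of cumulus cells at 0 h its value was -2.30.

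The difference of changes can also be read as a change in the gap between the cell types. Outside the oocyte-following genes, the median size of the log2 gap between cumulus and mural cells was 0.452 at 12 h and 0.562 at 0 h, and the median size of the change with time was 0.857 in cumulus cells and 0.531 in mural cells. Of the 8508 called genes, the gap was larger at 12 h in 3629 and smaller in 4879. Genes named above fall on both sides. For Pla2g4a and Ptx3 the cell types overlapped at 0 h and differed at 12 h by 2.81 and 5.61 on the log2 scale, cumulus minus mural. For Timp3 and Col18a1 a gap of -3.99 and -4.98 at 0 h compared with 0.25 and 0.91 at 12 h. Ptx3 lost its call by voom, as said.

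The 4 h libraries, outside the comparison, show by which course some genes reached 12 h. With CPM scaled over all 18 libraries and means of 3 libraries at 0, 4 and 12 h, Areg was at 0, 171 and 33.3 CPM in cumulus cells and 1.07, 406 and 15.3 CPM in mural cells. Both cell types peaked at 4 h, and mural cells, higher at 4 h, were lower at 12 h. Tnfaip6 was at 0.471, 1411 and 962 CPM in cumulus cells and 1.07, 1657 and 131 CPM in mural cells. Its cell types overlapped at 4 h and were apart at 12 h. Sult1e1 was at 0.0091, 683 and 50.4 CPM in cumulus cells and 0.0214, 1465 and 5.69 CPM in mural cells, higher in mural cells at 4 h and higher in cumulus cells at 12 h. Grem1 was at 167, 515 and 364 CPM in cumulus cells and 536, 191 and 16.7 CPM in mural cells, and so had crossed by 4 h. Adamts1 was at 27.4, 92.8 and 192 CPM in cumulus cells and 151, 449 and 4715 CPM in mural cells, with mural cells above cumulus cells at all 3 times. Inhba was at 2738, 5265 and 1013 CPM in cumulus cells and 6605, 5890.1 and 522 CPM in mural cells, Spp1 at 1.60, 536 and 14178 CPM in cumulus cells and 1.60, 137 and 3789 CPM in mural cells and Ptgs2 at 0.614, 2001 and 1239.9 CPM in cumulus cells and 0.827, 2360.2 and 457 CPM in mural cells. These courses were not tested. The calls for Inhba with the oocyte marker sum as a covariate, and for Sult1e1 and Ptgs2 without single libraries, were lost, as given above.

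**Figure D5:**
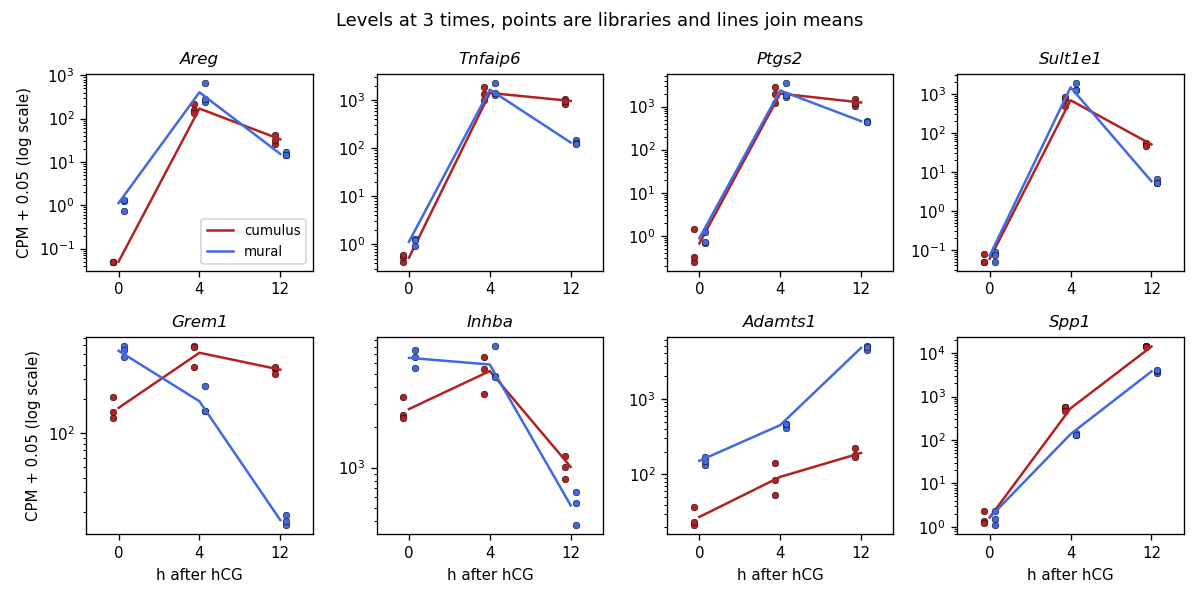
Levels of 8 genes at 0, 4 and 12 h after hCG in cumulus (red) and mural cells (blue), as CPM plus a constant of 0.05 on a log axis, scaled over all 18 libraries, with points for libraries and lines through the means of 3. Tnfaip6 and Ptgs2 libraries of the cell types overlap at 4 h and lie apart at 12 h, and the lines of Grem1 and Inhba cross.

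The oocyte-following genes gave the largest negative values of all. By the same level rule these were Zp1, Eif4e1b, Fbxw21, Tuba3a and Fbxw16. Zp1, a zona pellucida protein made by the oocyte, had 0, 0 and 0 CPM in cumulus cells at 12 h against 19.7, 91.0 and 105 CPM at 0 h. Libraries of mural cells had 18.8, 7.18 and 12.2 CPM at 12 h against 8.39, 11.4 and 29.8 CPM at 0 h. No count was found in cumulus cells at 12 h for the first 4, and against a floor of 3 counts over the group they were at least 2616-fold (Zp1), 3365-fold (Eif4e1b), 1249.8-fold (Fbxw21) and 1044-fold (Tuba3a) lower at 12 h than at 0 h. Fbxw16 had 1 count at 12 h against 3358 at 0 h. None of the 5 was called in mural cells. Their adjusted p ranged from 0.0021 to 0.0044, and calls for Zp1, Eif4e1b, Fbxw21 and Fbxw16 were lost by voom, and that for Fbxw16 also with the oocyte marker sum as a covariate. The oocyte marker sums given above were likewise lowest in cumulus cells at 12 h. The 5 genes were chosen among those that tracked this sum, and Zp1 is itself 1 of its 16 markers. That they follow the sum was thus part of the choice.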

How the data were processed

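RNA was measured by poly(A)-enriched, stranded libraries on an Illumina NovaSeq, per the labels' protocols. The deposited table holds whole-number read counts per gene, not normalized, which the authors obtained with CLC Genomics Workbench at default parameters, per the series' design text. Reads were placed on GRCm38, per the submitters' processing notes. The annotation, the version of the workbench, the strand setting and the handling of reads that match several copies were not given in the sources used here, so a gene and an overlapping or antisense neighbour may share reads. The table has 41325 entries. Aldoa and Ddit3 stand there only as suffixed double entries and were not counted in the lists.

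Counts of the 12 libraries were fitted with edgeR 4.0.16 (R 4.3.3), 1 mean per group, TMM scaling and robust quasi-likelihood. Genes with at least 10 counts by edgeR's expression filter were kept, which left 19045 genes holding at least 99.9% of each library's counts. P-values were adjusted by Benjamini-Hochberg over all of them, with a threshold of 0.05. Standard errors were taken from the fold change and the F statistic. CPM used the TMM-scaled library sizes, and values after ± are SD for CPM (n = 3 each) and standard errors for log2 values. Oocyte-following genes had a correlation of at least 0.9 and a slope of at least 0.5 with the oocyte marker sum over the 6 cumulus libraries of 0 h and 4 h, each centred on its group, using log2 of CPM plus 0.5. Gene positions are from GENCODE M21 and promoters from RefSeq.

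The comparison, the gene lists and the rules for naming genes were chosen with earlier results of these data known. Named genes were 30 genes of ovulation, the 10 largest differences in each direction and the 5 largest among oocyte-following genes at a group mean of at least 20 CPM without predicted names, the 10 largest opposite changes, and up to 4 called genes with the largest difference per list. Some genes that this rule names are not reported here. Lists are described by counts and medians, with no test of a list. The fit was tested on simulated data. Alternatives were DESeq2 1.42.0, limma 3.58.1 voom with weights per group, other scalings and filters, all 18 libraries, the oocyte marker sum as a covariate, the replicate number as a block, and leaving out each library.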

Additional observations from a re-analysis of the deposited data

Results flagged for a closer look

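The results below were picked out for a closer look. The first is the difference of changes itself: by edgeR's quasi-likelihood test of the interaction, 9497 genes changed differently in the 2 cell types, 165 of them among the 172 named genes. The second is the set of named genes that moved in opposite directions in the cell types with a called difference. On the log2 scale, cumulus change minus mural change, the difference was 4.67 for Zpld1, 4.37 for Arrdc4, 5.56 for Rgs6 and 3.23 for Hsd3b1, which rose in cumulus cells and fell in mural cells. It was -5.60 for Dok7, -3.80 for Apoa1, -3.72 for Adgrf5, -4.09 for Rbfox1, -3.02 for Tspan15 and -3.76 for Alas2, which fell in cumulus cells and rose in mural cells. The third lies outside the comparison: the 16 oocyte markers summed to 7805 CPM in 1 cumulus library of 4 h, scaled over all 18 libraries, above every library of 0 h.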

How the results depend on the processing

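The number of genes whose change differed was 9497 and ran from 8003 (all 18 libraries in the fit, 7820 of them shared with the 9497) to 9968 (DESeq2) over the other tools, scalings and filters. With single libraries left out it ran from 8638 to 10628, the highest without replicate 1 of cumulus cells at 0 h. Other scalings moved the median over all genes to -0.08 (DESeq2) and -0.09 (library totals), and the share of called genes that were higher was 46.2% with them against 48.7%.

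With the log2 oocyte marker sum as a covariate 4331 genes were called, 3370 by at least 2-fold, and the cumulus change was called for 6349. The share called higher was then 36.3%. The covariate runs nearly with the cumulus times, and whether it removed oocyte RNA or part of the hCG change cannot be told apart. Opposite calls numbered 1020, against 678 with all 18 libraries and 558 with the covariate.

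Of 172 named genes 165 were called, 104 of them under every alternative, and 65 of the 172 changed call in at least 1, mostly with the covariate. For 3 others, Cebpb, Il6 and Cyp19a1, the sign turned with no call in any fit. With the covariate the sign turned for Cyp19a1 (-0.34), Vcan (-0.0341), Dusp14 (2.23), Plat (1.64), Car9 (0.78), Edn1 (0.57), Jag2 (0.38), Mfng (3.61), Lef1 (2.56), Syt1 (0.55), Aldh1a2 (1.26), Cldn4 (2.47) and Slc7a11 (1.01), and the cause was not tested. Without single libraries the uncalled Cebpb ran from -0.13 to 0.0383 and Il6 from -1.71 to 0.28.

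Replicate numbers appear in every group, and same-numbered libraries deviated together (correlation over 0.1) in 2 of 12 pairings. Both were of cumulus with mural cells at 0 h, at 0.35 for replicate 1 and 0.25 for replicate 3, while replicate 2 there had -0.05. Nothing says what the numbers mark, and whether they pair the samples cannot be told from these correlations. With the replicate number as a block 9530 genes were called, 9262 of them among the 9497, and of the named genes Ptgs2 was then not called (1.94) and Pgr was (1.53). Depth limits genes near 0 counts, where a fitted log2 value depends on the prior count.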

Other observations

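Over the 3 cumulus libraries of 4 h, which entered no comparison here, the oocyte marker sum was 2434, 1260.1 and 7805 CPM, against 433, 2053 and 2142 CPM at 0 h, all scaled over the 18 libraries. Cdh5, an adhesion gene best known from endothelium, was at 152 to 178 CPM in cumulus cells at 12 h against 3.16 to 5.13 CPM at 0 h, and at 118 to 146 CPM in mural cells at 12 h against 17.2 to 19.7 CPM at 0 h. Cdh5 was outside the rule for named genes and is named after its values were seen.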
